A study of Mus musculus with 8 samples.

Results

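Transcripts of 10 genes of the NRF2 antioxidant response were followed in mouse liver. They were the NRF2 gene Nfe2l2, its inhibitor Keap1, and Nqo1, Gclc, Gclm, Srxn1, Txnrd1, Hmox1, Gsr and Prdx1. They were chosen by gene name, and all 10 were present among the 14506 genes of the table. The livers came from 8 mice on standard chow, 4 of them Rragc+/+ and 4 RragcS74N/+. Rragc encodes RagC, a GTPase that relays nutrient sufficiency to the kinase complex mTORC1. RragcS74N/+ mice carry, in every cell, 1 allele edited with CRISPR-Cas9 to encode the S74N substitution, which raises nutrient signalling, together with silent changes, and their controls carry only unedited alleles. Rragc+/+ replicates 1, 2 and 3 were 3 months old and replicate 4 was 2.5 months old. RragcS74N/+ replicates 1 and 2 were 3 months old, replicate 3 was 2.5 months old and replicate 4 was 2 months old. The labels give neither the sex of the mice nor the hour of collection. RNA was taken from whole tissue, so that a change in the number of cells of a type and a change in RNA per cell cannot be told apart.

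NRF2 is a transcription factor that is made continuously and destroyed almost as fast. KEAP1 holds it in the cytoplasm and hands it to a ubiquitin ligase. When electrophiles or oxidants modify cysteines of KEAP1, newly made NRF2 escapes, enters the nucleus, pairs with a small MAF protein and binds antioxidant response elements in its target genes. NRF2 activity is therefore set largely at the level of the protein, and its target transcripts are the usual readout. In liver these targets supply glutathione and NADPH-dependent reduction, and they serve the clearance of drugs and other foreign compounds. The autophagy receptor p62, encoded by Sqstm1, can compete with NRF2 for KEAP1, which links the pathway to mTORC1 and autophagy.

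Promoter sequences were read from RefSeq (GRCm38.p6) as windows from 250 bases before to 50 bases after each start, and 7 of the 10 genes had an entry (Nfe2l2, Keap1, Nqo1, Gclm, Srxn1, Txnrd1 and Prdx1). They were searched on both strands for TGACNNNGC, the core of the antioxidant response element, in which N is any base. The motif was found in 5 of these 7 genes (71.4%), against 16.9% of the 8454 tested genes with an entry and 12.4% of all 32851 windows of this length. The stretches around the motif in the 4 genes that hold it before the start are shown because NRF2 acts through this element. They are in the direction of transcription, 5′ to 3′, with the motif in capitals. In Gclm, Prdx1 and Txnrd1 the motif lies on the opposite strand and reads as its reverse complement. The Txnrd1 stretch belongs to the second of its annotated starts.
Nfe2l2: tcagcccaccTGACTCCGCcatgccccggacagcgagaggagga
Gclm: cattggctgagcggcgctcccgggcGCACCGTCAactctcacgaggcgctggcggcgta
Prdx1: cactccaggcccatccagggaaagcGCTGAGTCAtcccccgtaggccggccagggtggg
Txnrd1: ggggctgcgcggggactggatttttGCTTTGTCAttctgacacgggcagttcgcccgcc

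The Nfe2l2 stretch is chr2:75704870-75704913 on the minus strand, and its motif begins 240 bases before the RefSeq start. The bases after that start did not match the beginning of an annotated transcript. The Gclm stretch is chr3:122245398-122245456 on the plus strand, with the motif 134 bases before the start. The Prdx1 stretch, at chr4:116685441-116685499 on the plus strand, has its motif 133 bases before the RefSeq start. The gene start given for Prdx1 below, 116685544, lies before the RefSeq start, so this distance depends on the annotation. The Txnrd1 stretch is chr10:82859089-82859147 on the plus strand, with the motif 92 bases before the start. In Srxn1 the motif, GCTAGGTCA, begins at base 29 after the start. No match was found in the windows of Keap1 and Nqo1, which says only that these letters are not within these bases. A match is a description of the sequence and not a measured binding site.

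The libraries held between 4313076 and 6632108 reads in listed genes. Rragc itself had a mean normalized read count of 80.4 over the 8 livers and 76.6 ± 7.32 (SD, n = 4) in RragcS74N/+ livers. A substitution does not alter the number of reads, so this level does not check the genotypes. All 7 hepatocyte markers were detected, with summed levels of 300359 to 529350 normalized counts per liver. Some livers stood apart from the others. In the 2.5-month-old mice (Rragc+/+ replicate 4 and RragcS74N/+ replicate 3) the mean log2 level of clock genes that peak towards dusk was 7.12 and 7.43, against 5.32 to 6.22 in the other livers. Of that list, 9 of 10 genes were in the table, and their summed level was 921 to 1713 in Rragc+/+ and 614 to 2397 in RragcS74N/+ livers. The 2-month-old RragcS74N/+ replicate 4 had a mean log2 level of 8.85 for 7 genes that male mice express more strongly in liver, against 11.2 to 11.6 in the other RragcS74N/+ livers. All Rragc+/+ livers were above these, at 11.8 to 12.0. Their summed level was 65524 to 72861 normalized counts in Rragc+/+ and 16868 to 56754 in RragcS74N/+ livers, and 7 of 7 had a lower mean log2 level in RragcS74N/+. The part of this difference in the levels of the NRF2 genes was not tested. Of 8 kidney tubule markers 4 were in the table, with sums of 86.3 to 200 normalized counts in Rragc+/+ and 21.2 to 61.5 in RragcS74N/+ livers. Of these only Kap averaged 10 or more, at 67.9 to 163 in Rragc+/+ and 6.69 to 46.2 in RragcS74N/+ livers. Slc34a1, Slc12a1 and Miox overlapped between the genotypes and were at 0 in some livers.

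No NRF2 gene differed between the genotypes beyond the spread between livers. All 10 genes passed the filter for testing, a mean normalized read count of at least 10. Between RragcS74N/+ and Rragc+/+ livers, 5 had a higher and 5 a lower mean log2 level. With limma, 0 of 10 had a Benjamini-Hochberg adjusted p under 0.05, where 0.00895% of the 11174 tested genes did. At an unadjusted p under 0.05 there were also 0 of 10, where 5.17% of tested genes passed. In 0 of 10 genes were the livers of the genotypes fully separated, against 2.94% of tested genes. The median log2 difference of the 10 genes was 0.02, beside 0.01 over all tested genes, and the median absolute difference was 0.22, beside 0.26. The adjusted p values from limma ran from 0.846 to 1.0. edgeR and DESeq2 on the recovered reads also called 0 of 10.

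**Figure D1:**
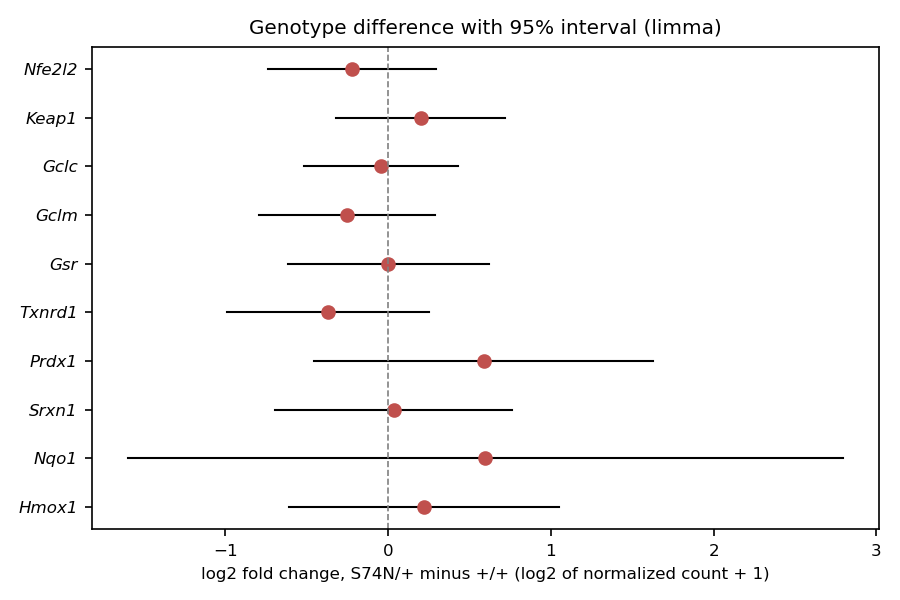
Difference between RragcS74N/+ and Rragc+/+ livers for the 10 genes, on the log2(normalized count + 1) scale, with points for the limma estimate and bars for its 95% confidence interval. Every interval crosses 0, and those of Nqo1 and Prdx1 are the widest.

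The level of each gene is given here as a normalized read count, the number of reads after scaling for library depth. The kit reads the 3′ end of each transcript, so these counts were not divided by length and compare genes by transcript ends. On that scale the genes fell into 4 tiers whose liver values did not overlap. Prdx1 (mean of 8 livers 4533), Gclc (2487) and Gclm (1905) made up the highest tier. Keap1 (570), Txnrd1 (564) and Nfe2l2 (505) followed, then Srxn1 (124), Gsr (82.1) and Hmox1 (72.7), with Nqo1 (10.3) alone at the bottom. Within a tier the ranges of neighbouring genes overlapped, so that their order is not separated from the spread. Prdx1 ranked 118 among the 14506 listed genes and Nqo1 ranked 11106.

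**Figure D2:**
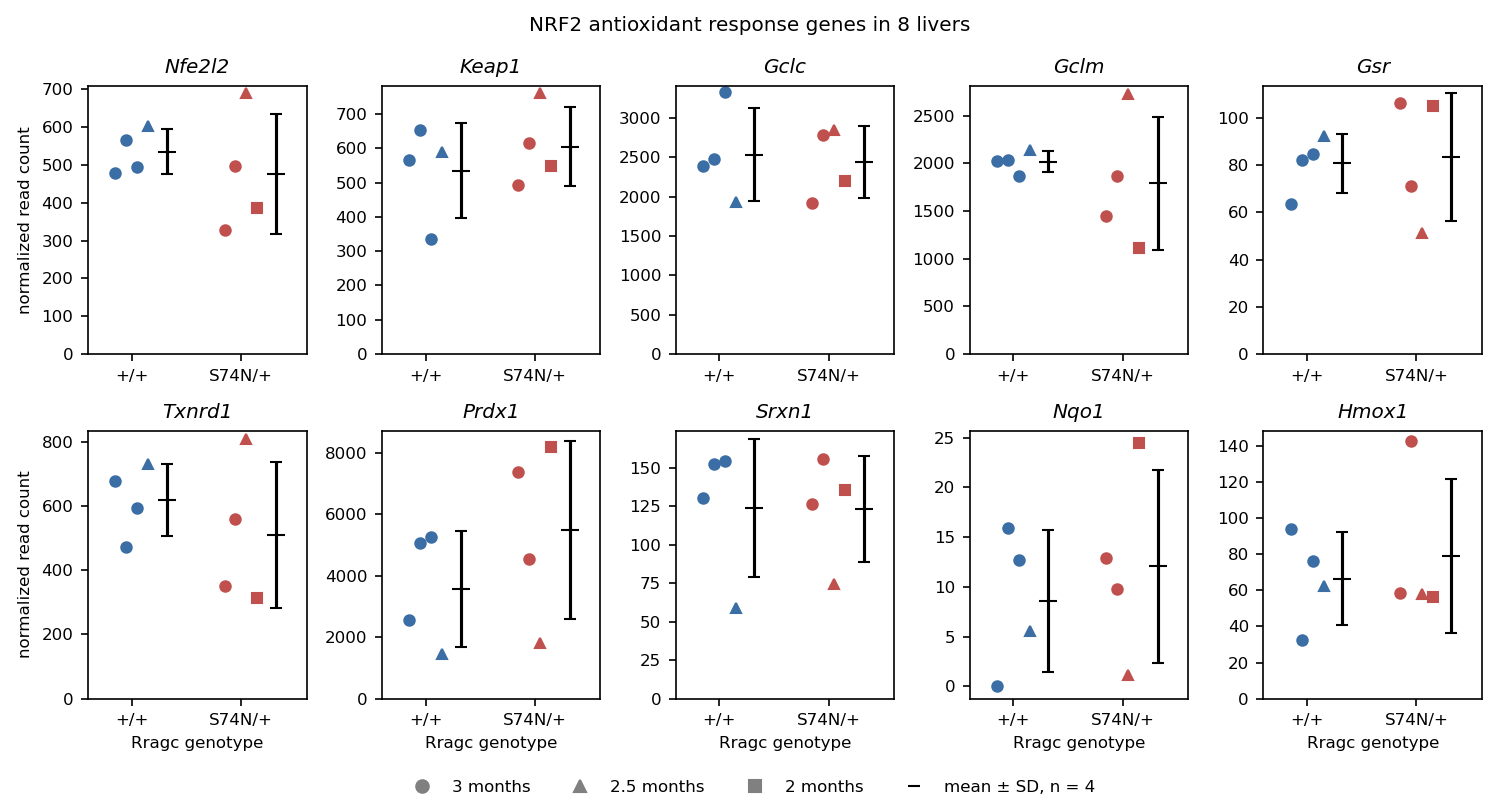
Normalized read count of each of the 10 genes in each liver, with Rragc+/+ and RragcS74N/+ livers side by side. The genotypes overlap for every gene, and Prdx1 runs from 1445 to 8179 within the 8 livers.

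Nfe2l2 (chromosome 2, 75675513 to 75704641, minus strand; GENCODE M21 on GRCm38, as for the genes that follow) encodes NRF2. Its normalized counts were 479, 567, 494 and 602 in Rragc+/+ livers (replicates 1 to 4, the order kept for every gene). The RragcS74N/+ livers had 329, 498, 690 and 386. The RragcS74N/+ livers held both the lowest and the highest value. The log2 difference was -0.22 ± 0.24 (SE, 4 livers per genotype, limma adjusted p = 0.857). The SD on the log2 scale was 0.16 in Rragc+/+ and 0.47 in RragcS74N/+ livers, a difference in spread that was not tested.

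Keap1 (chromosome 9, 21229730 to 21239361, minus strand) encodes the sensor that presents NRF2 for degradation. Rragc+/+ livers had normalized counts of 565, 654, 335 and 589, and RragcS74N/+ livers had 493, 616, 761 and 549. The lowest value belonged to Rragc+/+ replicate 3 and the highest to RragcS74N/+ replicate 3, while the other 6 lay between 493 and 654. The log2 difference of 0.20 ± 0.24 (SE) had a limma adjusted p of 0.872. Without Rragc+/+ replicate 3 it was -0.01.

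The enzymes of glutathione came next. Gclc (chromosome 9, 77754535 to 77794485, plus strand) encodes the catalytic subunit of glutamate-cysteine ligase, the rate-limiting step of glutathione synthesis. Its counts were 2392, 2482, 3337 and 1926 in Rragc+/+ and 1923, 2787, 2854 and 2197 in RragcS74N/+ livers, and of the 10 genes it had the narrowest range, with its highest value 1.74 times its lowest. The log2 difference was -0.05 ± 0.22 (SE, limma adjusted p = 0.967), with a 95% interval from -0.52 to 0.43. These livers therefore leave changes of up to those bounds unresolved.

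Gclm (chromosome 3, 122245557 to 122270732, plus strand) encodes the modifier subunit of the same ligase. The Rragc+/+ livers were close together, at 2023, 2041, 1870 and 2141 normalized counts. The RragcS74N/+ livers spread from 1116 to 2731, at 1451, 1868, 2731 and 1116, and so lay on both sides of the controls. The SD on the log2 scale was 0.08 against 0.55, which was not tested. The log2 difference of the means was -0.25 ± 0.25 (SE, limma adjusted p = 0.853).

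Gsr (chromosome 8, 33652523 to 33698163, plus strand) encodes glutathione reductase, which returns oxidized glutathione to its reduced form with NADPH. Counts were 63.4, 82.3, 84.9 and 92.5 in Rragc+/+ livers and 107, 71.1, 51.3 and 105 in RragcS74N/+ livers. Here the RragcS74N/+ livers again surrounded the controls, with replicates 1 and 4 above all of them and replicate 3 below. The means were 80.8 ± 12.4 and 83.5 ± 27.0 (SD, n = 4), and the limma adjusted p was 1.0. The sign of the log2 difference changed under other scalings and under both count tools.

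The thioredoxin and peroxiredoxin genes were Prdx1, Txnrd1 and Srxn1. Prdx1 (chromosome 4, 116685544 to 116700822, plus strand) encodes a peroxiredoxin that reduces hydrogen peroxide in the cytosol. Its normalized counts were 2543, 5082, 5259 and 1445 in Rragc+/+ livers, and 7388, 4545, 1823 and 8179 in RragcS74N/+ livers. RragcS74N/+ replicates 1 and 4 were above all other livers, whereas RragcS74N/+ replicate 3 was below all but 1. The means were 3582 ± 1889 and 5484 ± 2897 (SD, n = 4), and the log2 difference was 0.59 ± 0.48 (SE, limma adjusted p = 0.846; 95% interval -0.46 to 1.63). Leaving out RragcS74N/+ replicate 3 raised it to 1.05, at a limma adjusted p of 0.274, and leaving out Rragc+/+ replicate 4 lowered it to 0.21. Retrotransposed copies of a transcript as abundant as this can share its reads, so the assignment of some reads is uncertain.

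Txnrd1 (chromosome 10, 82833951 to 82897712, plus strand) encodes cytosolic thioredoxin reductase, which keeps thioredoxin reduced. It had 680, 472, 596 and 731 normalized counts in Rragc+/+ livers and 352, 561, 809 and 315 in RragcS74N/+ livers. The lowest and the highest livers were again both RragcS74N/+, and they were in the reverse order to Prdx1. The log2 difference was -0.37 ± 0.29 (SE, limma adjusted p = 0.846), and it was -0.63 without RragcS74N/+ replicate 3, -0.23 without RragcS74N/+ replicate 1 and -0.17 without RragcS74N/+ replicate 4. In that fit without RragcS74N/+ replicate 3, Prdx1, Txnrd1 and Gclm had an unadjusted limma p under 0.05 (3 of 10). In the same fit 15.0% of all tested genes did so. None of the 10 passed after adjustment.

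Srxn1 (chromosome 2, 152105516 to 152111376, plus strand) encodes sulfiredoxin, which repairs overoxidized peroxiredoxins. It had 131, 152, 154 and 58.9 normalized counts in Rragc+/+ and 127, 156, 74.7 and 135 in RragcS74N/+ livers. Rragc+/+ replicate 4 and RragcS74N/+ replicate 3 were low, and the other 6 livers lay between 127 and 156. The genotype means were nearly equal, at 124 ± 44.7 and 123 ± 34.5 (SD, n = 4), and the log2 difference of 0.03 ± 0.34 (SE) had a limma adjusted p of 0.985.

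Nqo1 and Hmox1 are the genes most often used as indicators of NRF2 activity. Nqo1 (chromosome 8, 107388225 to 107403206, minus strand) encodes a quinone reductase, and it was close to the limit of detection. Its normalized counts were 0, 15.9, 12.7 and 5.61 in Rragc+/+ livers and 12.9, 9.78, 1.11 and 24.5 in RragcS74N/+ livers, from between 0 and 30 reads per liver. A library with 0 reads allows up to 3 reads, or 2.80 normalized counts in Rragc+/+ replicate 1, counting error alone. The log2 difference of 0.60 ± 1.02 (SE, limma adjusted p = 0.902) had a 95% interval from -1.60 to 2.79, and without Rragc+/+ replicate 1 it was -0.28. At this depth a difference in Nqo1 of the size of any other gene's was not detectable.

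Hmox1 (chromosome 8, 75093621 to 75100589, plus strand) encodes heme oxygenase 1, which breaks down heme and in liver is prominent in the resident macrophages, the Kupffer cells. Its normalized counts were 94.2, 32.7, 76.4 and 62.6 in Rragc+/+ and 58.8, 143, 57.9 and 56.3 in RragcS74N/+ livers. RragcS74N/+ replicate 2 stood above all others. The log2 difference was 0.22 ± 0.38 (SE, limma adjusted p = 0.907), and it was -0.10 without that liver. That same liver had the highest mean log2 level of 12 Kupffer cell markers, 7.86 against 7.21 to 7.50 in the other livers. Of the single markers it was highest for Vsig4, Cd5l, C1qb and Adgre1. It was not highest for Clec4f, Timd4, Marco, C1qa, C1qc, Csf1r, Folr2 and Cd163. All 12 markers were in the table and none was at 0. Their summed level was 3183 to 4891 normalized counts in Rragc+/+ livers and 3170 to 5177 in RragcS74N/+ livers, and 7 of the 12 were higher and 5 lower in mean log2 level in RragcS74N/+. The part of these cells in the Hmox1 level was not tested.

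Livers of the same genotype differed widely in some of these genes. The within-genotype SD on the log2 scale ran from 0.30 for Gclc to 0.94 for Prdx1 and 1.70 for Nqo1, beside a median of 0.45 over the 11174 tested genes. Abundant genes usually vary less, so Prdx1 was set beside the 225 tested genes within 2-fold of its mean, of which 96.0% had a smaller SD. For Nqo1 the same share was 97.4% of 1798 genes, at levels where counting error is large. For Gclc it was 40.4% of 416 genes, and for Gsr 42.5% of 3997.

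**Figure D3:**
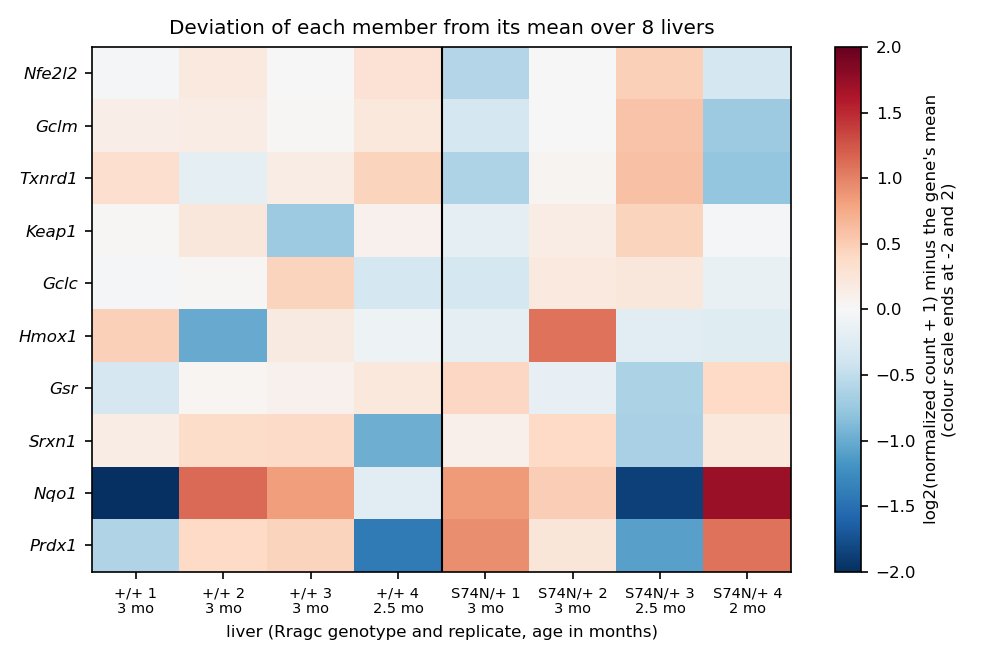
Deviation of each gene in each liver from that gene's mean over the 8 livers, in log2 units, with livers in columns, genes in rows and a colour scale that ends at -2 and 2. The 2.5-month-old livers (Rragc+/+ replicate 4 and RragcS74N/+ replicate 3) show higher Gclm, Txnrd1 and Nfe2l2 and lower Prdx1 and Srxn1 than the 3-month-old livers.

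Several of the genes moved in opposite directions from liver to liver. Over the 8 livers, 45 pairs of genes were compared on the log2 scale after their values had been seen, and all share the same size factors. The closest pair was Gclm and Txnrd1, with Pearson's r = 0.917 (exact permutation p = 0.000769, adjusted over 45 pairs 0.0346) and Spearman's rho = 0.857 (exact permutation p = 0.0107, adjusted 0.0964). It was the only pair with an adjusted p under 0.05 by Pearson's r, and no pair had one by rho. Without the 2 livers farthest from the median of Gclm, r was 0.840. After subtracting each genotype's mean it was 0.906, and without the 2.5-month-old mice it was 0.878.

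Prdx1 ran opposite to Txnrd1. Between them r was -0.902 (exact permutation p = 0.00325, adjusted 0.0731) and rho was -0.905 (exact permutation p = 0.00456, adjusted 0.0964). Without the 2 livers farthest from the median of Txnrd1, r was -0.873, and without the 2.5-month-old mice it was -0.897. Nfe2l2 followed Gclm, with r = 0.878 (exact permutation p = 0.00516, adjusted 0.0774) and rho = 0.881 (exact permutation p = 0.00724, adjusted 0.0964). Srxn1 and Prdx1 had r = 0.809 (exact permutation p = 0.0156, adjusted 0.111) but rho = 0.476 (exact permutation p = 0.243, adjusted 0.476). Without the 2 livers farthest from the median of Srxn1, r was -0.07. These were the 2.5-month-old livers, so that relation rests on them. In all, 12 of the 45 pairs had an unadjusted p under 0.05 by Pearson's r. The same share over all pairs of tested genes was not computed. High values of r were common in these livers. Of all other tested genes, 11.1% had r above 0.8 with Prdx1 and 8.34% had r below -0.8. With Txnrd1 these shares were 8.64% and 9.27%. The relations are therefore not particular to the NRF2 genes. Relations within a genotype (4 livers) or among the 3-month-old mice (5 livers) have too few livers to be given. Prdx1, Gclm, Txnrd1 and Nfe2l2 all hold the motif in their promoter windows. Prdx1 had a negative r with each of the other 3 (-0.902 to -0.787), which were positively related to each other (r of 0.841 to 0.917).

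**Figure D4:**
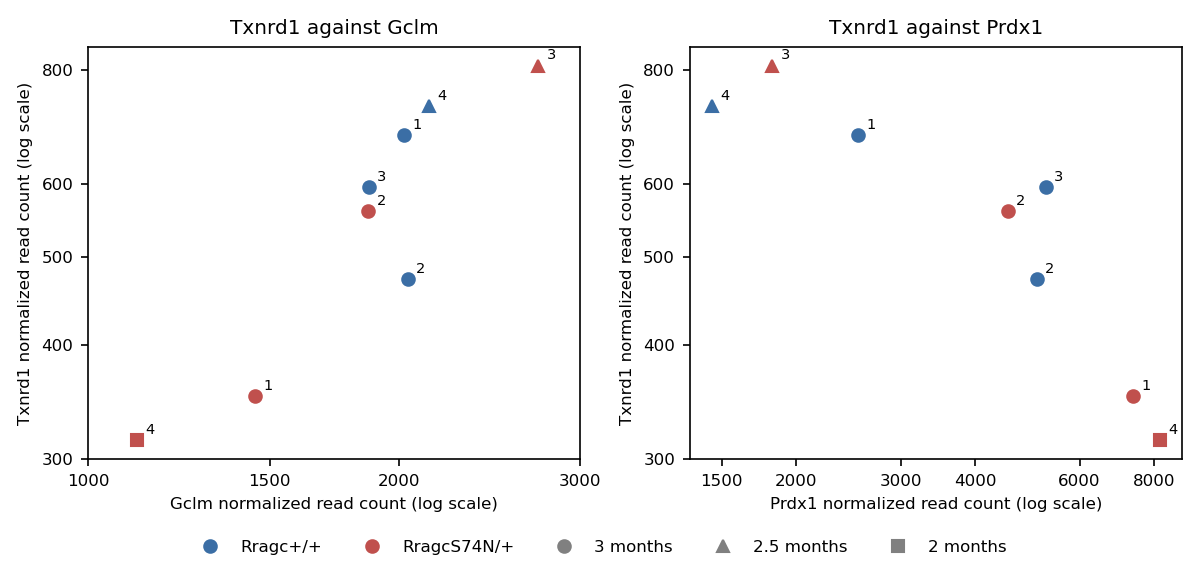
Txnrd1 against Gclm and Txnrd1 against Prdx1, as normalized read counts on log axes, with each point a liver. Over the 8 livers Txnrd1 was positively related to Gclm (r = 0.917) and negatively to Prdx1 (r = -0.902).

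Age in the labels ran with part of this pattern. For 5 of the 10 genes the 2.5-month-old livers, 1 of each genotype, did not overlap the 5 livers of 3-month-old mice, where 24.2% of all tested genes were so separated. Nfe2l2 was at 602 and 690 normalized counts against 329 to 567, Gclm at 2141 and 2731 against 1451 to 2041, and Txnrd1 at 731 and 809 against 352 to 680. Srxn1 and Prdx1 lay the other way. Srxn1 was at 58.9 and 74.7 against 127 to 156, and Prdx1 at 1445 and 1823 against 2543 to 7388, a fold of 0.346. The 2-month-old liver did not continue the order by age, with Prdx1 at 8179, Txnrd1 at 315 and Gclm at 1116, each at the other end of the range. With 2 such livers no test of age was made. The same 2 livers had the highest mean log2 levels of the dusk clock genes. Dbp, a transcription factor with a strong daily rhythm in liver, was at 57.9 and 126 normalized counts against 3.74 to 11.3 in the others. Nr1d1, Nr1d2 and Per3 were also above every other liver in both, whereas Tef, Hlf, Per1, Per2 and Bhlhe41 were not. The part of the hour of collection in these levels was not tested.

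The wider pathway was described with a list of 75 further genes, of which 68 were in the table and 67 were tested. The other 7, among them Slc7a11 and Gpx2, were not analysed here. With limma 0 of 67 had an adjusted p under 0.05, and 5 of 67 (3 higher, 2 lower) an unadjusted one, beside the 5.17% of all tested genes. The unadjusted count was 19 of 67 without RragcS74N/+ replicate 3, in the fit where 15.0% of all tested genes passed. It was 1 of 67 without RragcS74N/+ replicate 4, where 312 of 11104 tested genes passed. In RragcS74N/+ livers 45 had a higher and 22 a lower mean log2 level, so that 67.2% were higher, beside 51.3% of all tested genes. Their median log2 difference was 0.16, beside 0.01 over all tested genes. Many of these 67 genes moved together from liver to liver with Prdx1, so they are not separate observations of a direction. Of the 67, 15 (22.4%) had r above 0.8 with Prdx1, beside 11.1% of all other tested genes, and 4 (5.97%) had r below -0.8, beside 8.34%. Within this list, the genes closest to Prdx1 included Txnrd2 (r = 0.994), the mitochondrial thioredoxin reductase, and Sod2 (0.987), the mitochondrial superoxide dismutase. The ferritin subunits Ftl1 (0.985) and Fth1 (0.977) were also among them. At the other end of the list were Bach1 (r = -0.929) and Gsk3b (-0.885), both listed as genes that control NRF2.

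**Figure D5:**
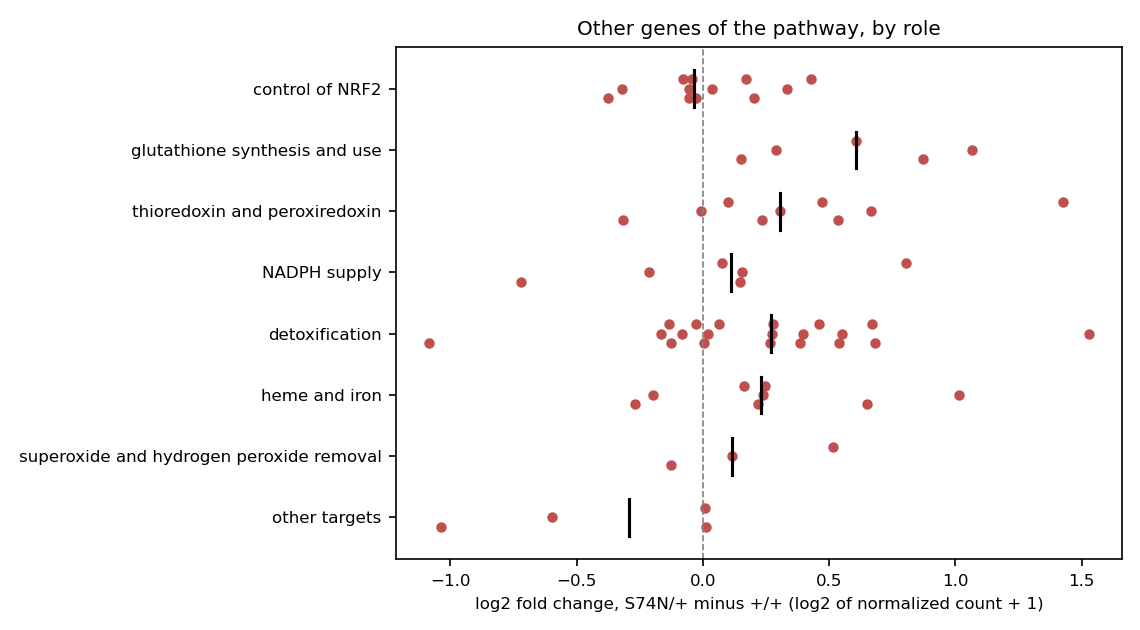
Log2 difference between RragcS74N/+ and Rragc+/+ livers for the tested genes of the wider NRF2 list, grouped by role, each point a gene and each black bar the median of its group. Values run from -1.09 to 1.53, and none of the 67 genes passed the adjusted threshold of 0.05.

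By role, genes that control NRF2 (12 tested, 5 higher and 7 lower) had a median log2 difference of -0.04. The largest difference among them was that of Pgam5, a mitochondrial phosphatase bound by KEAP1, at 0.43 (limma adjusted p = 0.852). Genes of glutathione synthesis and use (5 tested, 5 higher) had a median of 0.61. The largest difference was that of Chac1, which degrades glutathione, at 1.07 (limma adjusted p = 0.846). Chac1 had between 2 and 37 reads per liver, so this difference rests on few reads. Its normalized counts were 34.5, 2.81, 2.83 and 9.34 in Rragc+/+ and 31.2, 7.999, 15.6 and 20.4 in RragcS74N/+ livers, which overlapped. The highest value was that of Rragc+/+ replicate 1. The thioredoxin group (9 tested, 7 higher) had a median of 0.31. In it Txnip, an inhibitor of thioredoxin, differed by 1.43 (limma adjusted p = 0.846), and Prdx4, the peroxiredoxin of the endoplasmic reticulum, by 0.47 (limma unadjusted p = 0.049). Prdx4 counts were 440, 470, 310 and 594 in Rragc+/+ and 655, 599, 557 and 645 in RragcS74N/+ livers, which overlapped.

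Genes that supply NADPH (6 tested, 4 higher) had a median of 0.11. Idh1, cytosolic isocitrate dehydrogenase, differed by 0.80 (limma adjusted p = 0.852). Tkt, the transketolase of the pentose phosphate pathway, went the other way, with a difference of -0.72 ± 0.27 (SE, limma unadjusted p = 0.0207, adjusted 0.846). Its counts were 697, 322, 487 and 519 in Rragc+/+ and 285, 391, 345 and 198 in RragcS74N/+ livers, so that Rragc+/+ replicate 2 lay among the RragcS74N/+ livers. Heme and iron genes (8 tested, 6 higher) had a median of 0.23, with Ftl1 at 1.01 (limma adjusted p = 0.846). Ftl1, the ferritin light chain, stood at 622, 1135, 1638 and 178 normalized counts in Rragc+/+ and 3472, 1225, 204 and 3968 in RragcS74N/+ livers, the same order of high and low livers as in RragcS74N/+ Prdx1.

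Detoxification genes (20 tested, 14 higher and 6 lower) had a median of 0.27. Gstm1, a glutathione S-transferase, was the only gene of the wider list whose genotypes did not overlap, 1 of 67 beside the 2.94% of all tested genes. Its counts were 10518, 9967, 8868 and 9312 in Rragc+/+ livers and 13627, 13770, 11550 and 14228 in RragcS74N/+ livers. The log2 difference was 0.46 ± 0.19 (SE, limma unadjusted p = 0.0315, adjusted 0.846). Gsta2, another transferase, had the largest difference of the group, 1.53 ± 0.56 (SE, limma unadjusted p = 0.0177, adjusted 0.846), from 15.8, 35.5, 90.5 and 25.2 in Rragc+/+ to 115, 64.9, 47.9 and 274 in RragcS74N/+ livers. Transferase genes of a class are similar in sequence, and reads may be uncertain between them.

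Genes of superoxide and hydrogen peroxide removal (3 tested, 2 higher) were not regarded as NRF2 genes, but all totals given for the 67 genes of the wider list include them. They had a median of 0.12, with Sod2 at 0.52 (limma adjusted p = 0.858). Other targets of NRF2 (4 tested, 2 higher and 2 lower) had a median of -0.30. Among these Gdf15, a stress-induced secreted factor, differed by -1.04 (limma unadjusted p = 0.0345, adjusted 0.846), with counts of 223, 219, 83.5 and 289 in Rragc+/+ and 56.9, 146, 154 and 50.6 in RragcS74N/+ livers. Rragc+/+ replicate 3 lay inside the range of the RragcS74N/+ livers.

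The genes most like Nqo1 and Hmox1 over the 8 livers were listed as a description. They are the 5 highest for each gene among all tested genes, so a high r follows in part from the choice. Nqo1 had between 0 and 30 reads per liver, so its profile rests on few reads. Its matches averaged 17.1 to 53.1 normalized counts. For Nqo1 they were Gm44044 (r = 0.969), Arhgef2 (0.964), Lsm8 (0.957), Gsn (0.956) and Tor1a (0.955). For Hmox1 they were Ncapd2 (0.941), Cd52 (0.926), Gm44552 (0.909), Pkm (0.908) and Inpp4a (0.896).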

How the data were processed

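Libraries were prepared from liver RNA of 8 mice with a stranded kit that sequences the 3′ end of messenger RNA. Per the study's methods and processing notes, reads were aligned to GRCm38 with TopHat2 2.0.10, Bowtie 1.0.0 and SAMtools 0.1.19, counted by strand with HTSeq 0.6.1 against GENCODE and scaled with DESeq. The deposited signal, a DESeq-normalized read count per gene and liver, was a whole multiple of 1 read in 100% of values (tolerance 0.01), so reads were recovered. These covered 4313076 to 6632108 reads in listed genes per liver, which is not the full depth. Intervals and floors for reads cover counting error only. No library pair matched within sampling noise (chi-square per degree of freedom 14.6 to 101 over 28 pairs).

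Groups and ages came from the labels, and replicate numbers only name a liver. Genotypes were compared with limma 3.58.1 in R 4.3.3 (mean-variance trend, two-sided) on the log2 scale after adding 1 to each normalized count, over the 11174 genes that averaged 10 or more, and p values were adjusted by Benjamini-Hochberg over all of them (threshold 0.05). This scale understates the change of low genes. Correlations used an exact two-sided permutation test. Alternatives were edgeR 4.0.16 and DESeq2 1.42.0 on recovered reads, TMM or upper-quartile rescaling, pseudocounts of 0.1 and 5, no minimum level or a minimum of 50, limma with array weights or with no trend, 3-month-old mice by themselves, age in months as a covariate, and each liver left out in turn. Age as a factor and leaving out the 2.5-month-old mice were added after seeing the data. Scripts were tested on simulated counts.

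The 10 genes and all lists were chosen with earlier results of these data known. Named from the wider list were genes with an unadjusted p under 0.05 and the gene of largest absolute difference in each role. Txnrd2, Fth1, Sod2, Bach1 and Gsk3b were named beside Prdx1 after their values were seen. Likeness was the 5 genes of highest r with Nqo1 and with Hmox1.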

Additional observations from a re-analysis of the deposited data

Results flagged for a closer look

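Hmox1 in RragcS74N/+ replicate 2 lay far from the other livers of its genotype, at a log2(normalized count + 1) of 7.171 (143 normalized counts) against 5.84 to 5.90 (56.3 to 58.8) in the other 3. Its gap to the nearest of them, as a share of the range, was above Dixon's 95% critical value for 4 samples. The 21 genes examined were the 10 NRF2 genes and those of the wider list named for their p value or for the largest difference in their role. They gave 42 groups of 4 livers, and this Hmox1 group was the only one past that limit. Chance gives about 1 in 20, or 2.1. The same liver had the highest mean log2 level of the Kupffer cell markers of the 8. Among the single markers it was highest only for Vsig4, Cd5l, C1qb and Adgre1.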

How the results depend on the processing

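The count of NRF2 genes past the adjusted threshold was 0 under every alternative run, as was that of the wider list. At an unadjusted p under 0.05 it was 0 of 10, except for 3 without RragcS74N/+ replicate 3. For the wider list it was 5 of 67, where 578 of all 11174 tested genes passed. It was 11 with array weights (1237 of all 11174), 1 with age as a covariate (415) and 3 without the trend (603). It was 6 with edgeR (618), with DESeq2 (675) and in 3-month-old mice alone (640 of 11147), and 7 with age as a factor (632). With the 2.5-month-old mice left out it was 13 (1209 of 11203). It was 6 of 68 with no minimum level (788 of 14506) and 4 of 58 with a minimum of 50 (357 of 6917). With each liver left out it ran from 1 (312 of 11104) to 19 (1682 of 11182). Over all tested genes limma called 1 (578 at an unadjusted p under 0.05). That count was 0 without the trend (603 unadjusted), 0 with age as a covariate (415), 0 in 3-month-old mice alone (640) and 10 with DESeq2 (675). It was 3 with age as a factor (632) and 0 with the 2.5-month-old mice left out (1209). With each liver left out it ran from 0 to 2. The lone gene at issue is not an NRF2 gene.

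Genes near 0 changed sign. Gsr was at 0.0021 with a pseudocount of 5, 0.0117 after upper-quartile and 0.0066 after TMM rescaling, 0.15 with array weights, 0.19 in 3-month-old mice alone, 0.0596 with edgeR, 0.0608 with DESeq2 and 0.28 with the 2.5-month-old mice left out. Gclc was at 0.0092 with age as a covariate and 0.0078 with age as a factor, and Srxn1 at -0.0493 in 3-month-old mice alone and -0.0665 with the 2.5-month-old mice left out. With each liver left out, Nqo1 ran from -0.28 to 1.32, Hmox1 from -0.10 to 0.42, Gsr from -0.14 to 0.21, Keap1 from -0.0106 to 0.31, Gclc from -0.17 to 0.10 and Srxn1 from -0.29 to 0.26. Prdx1 (0.21 to 1.05), Txnrd1 (-0.63 to -0.17), Gclm (-0.48 to -0.05) and Nfe2l2 (-0.42 to -0.06) kept their sign in all of these fits. Of the wider list, Idh1 ran from 0.26 to 1.59, Ftl1 from 0.38 to 1.93, Sod2 from 0.05 to 1.03, Pgam5 from 0.20 to 0.75, Txnip from 0.96 to 2.22, Chac1 from 0.68 to 1.75 (0.57 with edgeR and 0.54 with array weights), Prdx4 from 0.30 to 0.61, Gsta2 from 1.05 to 1.99, Gstm1 from 0.42 to 0.52, Tkt from -0.92 to -0.53 and Gdf15 from -1.42 to -0.77. Nqo1 was not tested at a mean of at least 50 and fell below the filter in 4 fits. The cause of each change was not tested. No paired analysis was possible because the labels tie no mouse of a genotype to a mouse of the other.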
